A study of Mus musculus with 13 samples.

Results

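The 50 genes described here drive or license the cell division cycle and DNA replication. They were taken by name from a fixed list and are 50 of the 21938 protein-coding genes of GENCODE M21 on chromosomes 1 to 19, X and Y of mm10. The list holds 5 G1 cyclins and kinases, 4 genes of the G1/S step, 7 genes acting from S phase to mitosis, 16 genes of origin licensing, the replication fork and nucleotide supply, 5 E2F factors, 3 pocket proteins and 10 genes of mitosis. All 50 were found in the annotation.

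The study followed mouse oligodendrocyte formation from neural stem cells (NSCs) through oligodendrocyte precursor cells (OPCs) to newly formed oligodendrocytes (NFOs). H3K4me3 and H3K27me3, a mark of active promoters and a mark of Polycomb repression, were mapped by ChIP-Seq in all 3 cell types, and OLIG2, a basic helix-loop-helix transcription factor of this lineage, was mapped in OPCs and NFOs. Each condition has 1 library, so no difference between cell types was tested and no value carries an error between animals or cultures. The NSCs were bought and grown with EGF and FGF, and came from embryonic day 14.5 cortices of CD-1 mice by the growth protocol, while the strain field of their labels reads C57BL/6. OPCs and NFOs came from brains of untreated C57BL/6 mice at postnatal day 7, the former caught on plates coated with an antibody to PDGFRα and the latter on plates coated with an antibody to GalC. The antibody field of the 6 histone samples names the other mark than the title does, and the titles were followed. The OLIG2 peaks of NSCs and the 3 input DNA samples were not used here.

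A cell enters the cycle when D-type cyclins with CDK4 and CDK6 phosphorylate the pocket proteins RB1, RBL1 and RBL2, which frees E2F factors to switch on the genes of DNA synthesis. Cyclin E with CDK2 then starts S phase at origins that ORC, CDC6, CDT1 and the MCM helicase have licensed, and cyclins A and B with CDK1 carry the cell into mitosis. NSCs and OPCs divide, whereas oligodendrocytes leave the cycle as they differentiate.

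The lists hold 33292, 18284 and 21736 H3K4me3 peaks for the 3 cell types in that order, and their read depth is unknown. A gene's H3K4me3 is given as covered bp, the bases within 2 kb of any of its transcription start sites (TSSs) that lie in a listed peak. Of 8 OPC markers, 8 had H3K4me3 in OPCs, and 8 of 8 NSC markers had it in NSCs. Of 10 markers of oligodendrocytes, 2 had it in the NFO library, Cnp and Ugt8a, while those at 0 bp included Mbp, Mag, Mog, Mobp, Myrf, Enpp6 and Opalin. Of 8 microglial markers, 0 had H3K4me3 in NFOs and 1 did in OPCs, Csf1r. Of 8 neuronal markers 7 had it in OPCs and 6 in NFOs, and of 6 astrocyte and 6 endothelial markers 2 of each did in both cell types. NSC markers had it at 8 of 8 in OPCs and 5 of 8 in NFOs. The part other cells play in the values below was not tested. The listed peaks also carried an imprint of base composition that returns with each result below. A run of at least 12 A or 12 T lay in 67.5% of OPC and 65.8% of NFO OLIG2 peaks and in 88.3% of NSC H3K27me3 peaks under 500 bp wide, against 4.05% of windows of 230 bp tiling the 50 genes and 5 kb upstream of them. These windows have the width of OPC OLIG2 peaks. The median NSC H3K27me3 peak was 341 bp wide, so the 88.3% has no background of matched width. In OPC and NFO histone lists such runs often lay at the edges of peaks. An edge within 30 bp of a run was found in 53.4% of NFO and 23.6% of OPC H3K4me3 peaks and in 8.29% of those of NSCs. The part these runs play in the calls was not tested.

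All 50 cell cycle genes had a listed H3K4me3 peak within 2 kb of a TSS in NSCs, where 64.3% of protein-coding genes did. All 50 had 1 in OPCs too, against 60.8% of protein-coding genes. In NFOs 38 of the 50 had 1, against 43.6%. The covered width narrowed at each step, and the median over the 50 genes was 2813.5 bp for NSCs, 1572.5 for OPCs and 379.5 for NFOs. It was widest in NSCs, lower in OPCs and lowest in NFOs for 45 of the 50 genes, or 90%. The same order held at 87.4% of the protein-coding genes that were marked in both NSCs and OPCs, a share close to that of the cell cycle genes. Among 7 OPC markers with H3K4me3 in both NSCs and OPCs, it held for 1.

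**Figure D1:**
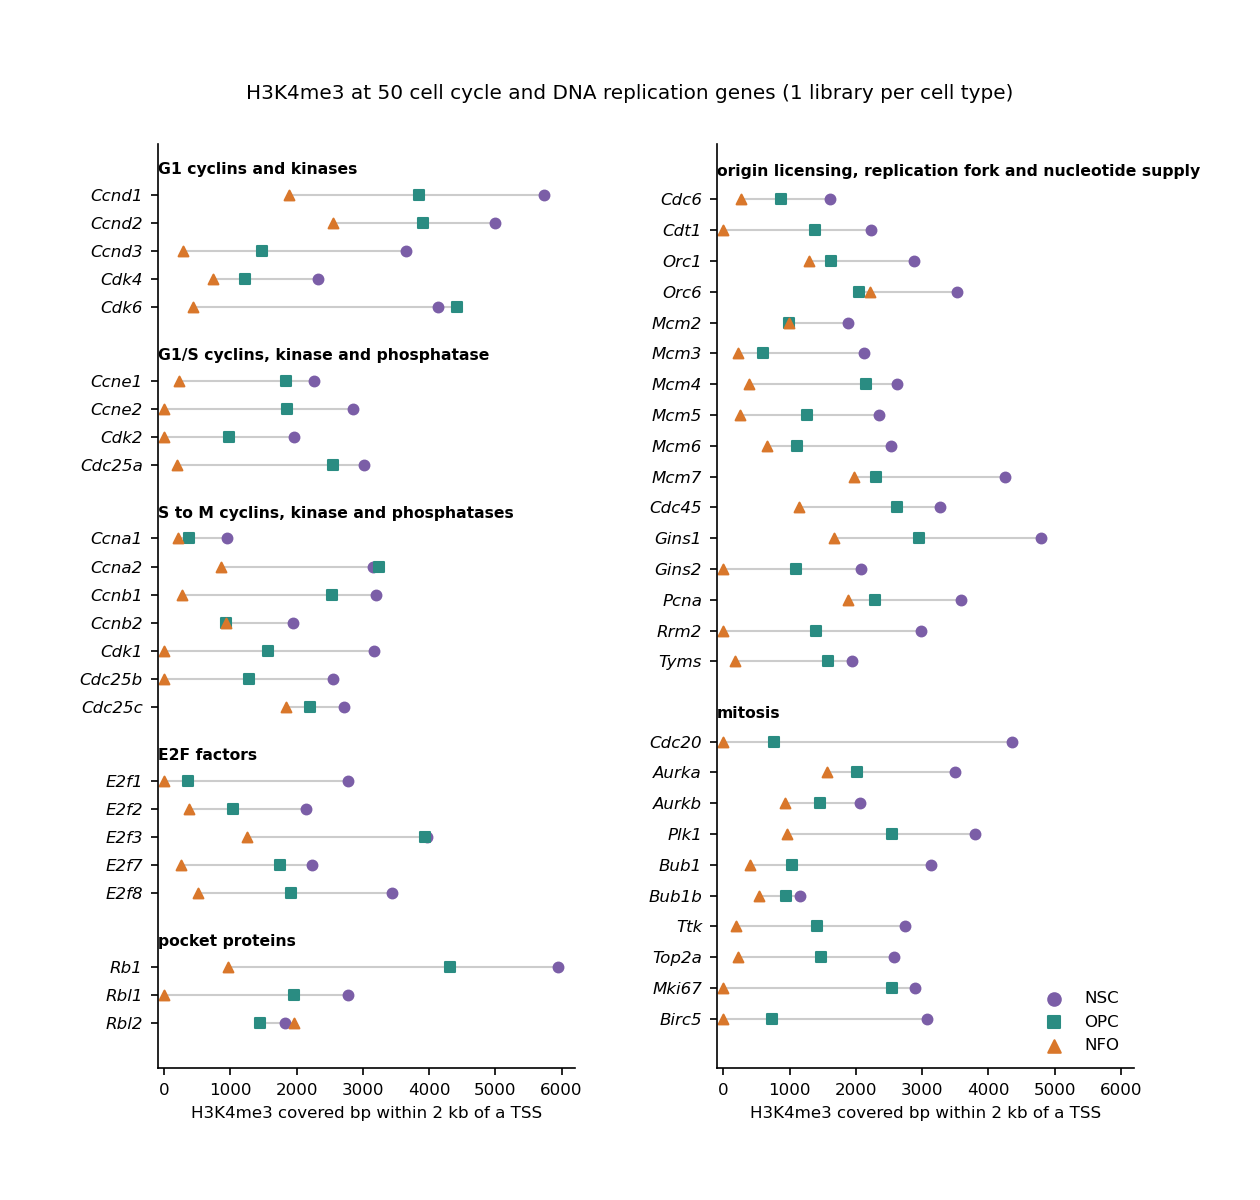
H3K4me3 covered bp within 2 kb of a TSS (x axis, bp) of each of the 50 cell cycle genes, grouped by role, with 1 point per cell type and 1 library each. NSC circles lie furthest to the right for most genes, and NFO triangles lie at 0 bp for 12 genes.

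From NSCs to OPCs the covered bp of the 50 genes was lower by 2-fold or more at 13, or 26%, against 32.2% of the 14114 protein-coding genes marked in NSCs. The median ratio of OPC to NSC covered bp was 0.577 over the 50 genes and 0.62 over all genes. From OPCs to NFOs it was lower by 2-fold or more at 34, or 68%, against 71.7% of the 13335 genes marked in OPCs. The median ratio of NFO to OPC covered bp was 0.265 over the 50 genes and 0.253 over all genes. Both steps share the OPC library. For the step from OPCs to NFOs the order of these shares depended on the peaks and genes used. With fold enrichment above 5 it was 91.1% of cell cycle genes against 84.1%, and without genes that share a window 74.4% against 72.9%. At 12 of the 50 genes, or 24%, the mark listed in OPCs had no listed peak in NFOs, and among all genes this share was 30.6%.

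Where a peak was listed, cell cycle genes stood above the middle of the NSC library. Ranked by covered bp among the genes with a peak, their median percentile was 71.2 for NSCs, 58.2 for OPCs and 54.3 for NFOs. Without the 11 genes that share their window with another protein-coding gene, named below, it was 69.9, 52.7 and 38.4, and for those 11 it was 83.9, 79.5 and 89.6. In NSCs 98% of the 50 genes were covered at the gene start and 96% at 1000 bp downstream, against 84% and 66.1% of all marked genes. In OPCs 88% were covered at the start and 50% at 1000 bp, against 72% and 41.5%. In NFOs 42.1% of the 38 marked genes were covered at the start and 26.3% at 1000 bp, against 28.5% and 22.6%. Of 47 NFO peaks near these genes 26 were under 500 bp wide (55.3%), against 53.5% of NFO peaks near all protein-coding genes.

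**Figure D2:**
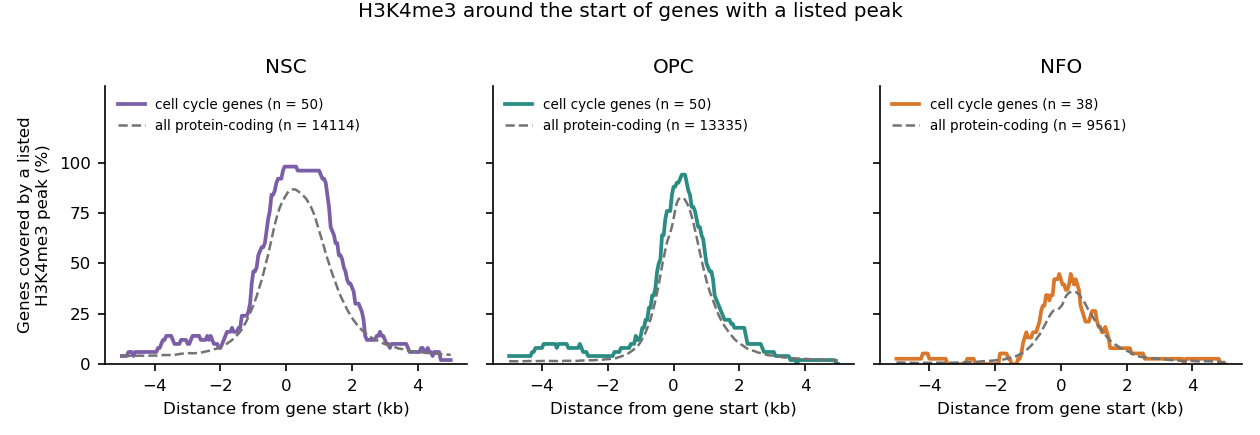
Share of genes covered by a listed H3K4me3 peak (y axis, %) against distance from the annotated gene start along transcription (x axis, kb), for cell cycle genes with a peak (solid) and all protein-coding genes with a peak (dashed). The cell cycle curve is the wider one in NSCs, and at the start in NFOs it stands at 42.1%.

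The G1 cyclins and kinases kept H3K4me3 in all 3 cell types, at 5 of 5 genes. Ccnd1, the D-type cyclin that mitogens induce, was covered over 5729 bp in NSCs, and 3843 and 1887 bp followed in OPCs and NFOs. The NSC value fills the whole window of Ccnd1, as the listed peak was 7939 bp wide. Ccnd2, a second D-type cyclin, was covered over 4998, 3906 and 2547 bp in the same order, which is the most of the 50 genes in NFOs. Among the genes marked in NFOs, these were at percentiles 94.5 and 98.4. Ccnd3, the third D-type cyclin, was covered over 3655, 1472 and 283 bp, and its NFO percentile was 25.1. Cdk4, a kinase partner of the D-type cyclins, was covered over 2316, 1218 and 734 bp. Cdk6, the other partner, was 1 of 2 members with more covered bp in OPCs than in NSCs. It was covered over 4138 bp in NSCs, 4422 bp in OPCs, the most of the 50 genes there, and 442 bp in NFOs.

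The 4 genes of the G1/S step had little H3K4me3 in NFOs. Cdk2, the kinase of cyclin E, was covered over 1956 bp in NSCs and 976 bp in OPCs and had no listed peak in NFOs. Ccne2, a cyclin E gene, was covered over 2854 and 1861 bp and also had none in NFOs. Ccne1, the other cyclin E gene, kept 230 bp and Cdc25a, the phosphatase that activates CDK2, kept 192 bp, from 1839 and 2550 bp in OPCs. The median NFO to OPC ratio of these 4 was 0.0376, the lowest of the 7 roles.

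Among the 7 genes acting from S phase to mitosis, Cdk1 and Cdc25b had no listed peak in NFOs. Cdk1, the mitotic kinase, was covered over 3168 bp in NSCs and 1564 bp in OPCs, and Cdc25b, a phosphatase that activates it, over 2542 and 1282 bp. Ccnb1, the main mitotic cyclin, was covered over 3195, 2527 and 268 bp. Ccna2, the cyclin A of dividing somatic cells, was the other member with more covered bp in OPCs (3247 bp) than in NSCs (3154 bp), and it was covered over 857 bp in NFOs. Cdc25c and Ccnb2 were the genes of this group whose covered bp fell least from OPCs to NFOs, from 2200 to 1844 bp and from 939 to 927 bp. The 2 Ccnb2 peaks differed in place, however. On chromosome 9 the OPC peak (70420861 to 70421799) spanned the TSS. The NFO peak (70420190 to 70421116) lay 431 bp downstream of it, with a run of A or T at each edge. Ccna1, a cyclin A of the germ line, had the smallest NSC value of the 50 genes, 956 bp, and 377 and 203 bp later.

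Of the 16 replication genes 13 kept a listed peak in NFOs. The 3 without were Cdt1, which loads the MCM helicase, Gins2, a subunit of the replicative helicase, and Rrm2, the small subunit of ribonucleotide reductase. Their covered bp in OPCs was 1379, 1101 and 1404 bp. Orc6, a subunit of the origin recognition complex, was covered over 3532, 2045 and 2208 bp, and Mcm7, a subunit of the MCM helicase, over 4256, 2299 and 1970 bp. Pcna, the sliding clamp of the polymerases, was covered over 3593, 2287 and 1877 bp. These 3 were the widest of the group in NFOs, at percentiles 97.1, 95.3 and 94.4. Tyms, which makes thymidylate, kept 173 bp of 1581 bp, the smallest NFO value above 0 among the 50 genes. Mcm2 had the same peak in OPCs and NFOs to the base, 992 bp on chromosome 6 from 88898043 to 88899034, with a run of A or T at each edge. Mcm3 was among the 5 lowest OPC to NSC ratios, at 595 bp against 2125 bp.

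The E2F factors differed from each other most in OPCs, from 354 to 3943 bp. E2f1, an activator of S phase genes, was covered over 2773 bp in NSCs and 354 bp in OPCs, the lowest OPC to NSC ratio of the 50 genes (0.128), and had no listed peak within 2 kb in NFOs. E2f3, another activator, was covered over 3962, 3943 and 1258 bp and hardly differed between NSCs and OPCs. The E2f2 peak narrowed from 2149 to 1047 to 378 bp while its fold enrichment over control went from 14.1 to 20.3 to 33.4, and the OPC and NFO peaks began at the same base, beside a run of A or T. The repressors E2f7 and E2f8 were covered over 257 and 512 bp in NFOs, from 1747 and 1919 bp in OPCs.

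The pocket proteins, which bind E2F factors and hold them inactive, differed from each other in NFOs. Rb1 had the most covered bp of the 50 genes in NSCs, 5939 bp, followed by 4314 and 966 bp. The NSC value joins separate peaks, of 3137 bp at the gene start and 3134 bp at a TSS inside the gene. By whole peak width Rb1 had 6271 bp in NSCs, less than Ccnd1 (7939 bp) and Ccnd2 (7189 bp). Rbl1 was covered over 2772 and 1960 bp and had no listed peak in NFOs. Rbl2, the pocket protein of quiescent cells, was covered over 1826, 1445 and 1963 bp. Its NFO to OPC ratio of 1.36 was the highest of the 50 genes, and only Orc6 (1.08) was also above 1. The fold enrichment of the Rbl2 peak was nevertheless lower in NFOs than before, at 12.8, 6.05 and 3.99 in the 3 cell types. The median over all marked protein-coding genes fell too, at 8.44, 6.5 and 5.02.

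Among the 10 genes of mitosis, Cdc20, Mki67 and Birc5 had no listed peak near a TSS in NFOs. Cdc20, which activates the anaphase-promoting complex, was covered over 4361 bp in NSCs and 768 bp in OPCs. Birc5, which encodes survivin, was covered over 3078 and 736 bp. Together with Bub1, a spindle checkpoint kinase (3140 and 1034 bp), both were among the 5 lowest OPC to NSC ratios. Mki67, whose protein is the common marker of dividing cells, was covered over 2889 bp in NSCs and 2541 bp in OPCs, one of the 5 highest ratios (0.88). Aurka, a mitotic kinase, kept the most in NFOs, 1558 bp. Plk1, Aurkb, Bub1, Bub1b, Ttk and Top2a ranged from 195 bp at Ttk to 964 bp at Plk1.

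Near the 12 genes with no listed NFO peak within 2 kb, the nearest one lay just outside the window at Cdc20, at -2236 bp from the TSS, and at E2f1, at -3083 bp. At Cdk2 it lay 8399 bp away and at Cdc25b 17639 bp, and at the other 8 it lay further away or was not found near the gene. Another protein-coding gene had a TSS inside the window of 11 of the 50 genes, and its H3K4me3 cannot be told apart from theirs. These were Cdk2, Cdc25b, Cdc25c, Orc1, Orc6, Mcm4, Mcm7, Cdc45, Gins1, Rb1 and Aurka. Of the 11, 9 kept H3K4me3 in NFOs with a median over the 11 of 1295 bp, and of the other 39 genes 29 kept it with a median of 264 bp. Orc6, Mcm7 and Cdc25c, among the least narrowed, are thus shared with Vps35, Ap4m1 and Gm3550, while Rbl2, Pcna, Ccnd1 and Ccnd2 share their window with no other protein-coding gene.

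When peaks with a run of A or T within 30 bp of an edge were set aside, 50, 39 and 25 of the 50 genes had H3K4me3 in the 3 cell types. The shares of all protein-coding genes were then 63.5%, 50.8% and 29.3%. The 13 genes that went out in NFOs were Ccna1, Ccnb2, Ccnd3, Ccne1, Cdc25a, Cdc6, E2f2, Mcm2, Mcm3, Orc1, Top2a, Ttk and Tyms. At 19 of 47 NFO H3K4me3 peaks of cell cycle genes an edge lay by such a run, against 14 of 55 OPC peaks and 2 of 68 NSC peaks.

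The 89 other cell cycle genes on a second list, among them further ORC, GINS, RFC and checkpoint genes, had similar values. All 89 had H3K4me3 in NSCs and in OPCs and 71 in NFOs (79.8%), with median covered bp of 2573, 1457 and 366 bp. Of 8 CDK inhibitor genes, which stop the cycle, 5 had H3K4me3 in NFOs, with a median of 272 bp. Cdkn1b, which encodes p27, a protein linked to the exit of oligodendrocyte precursors from the cycle, was covered over 3119, 2649 and 2158 bp. Its NFO to OPC ratio of 0.815 lay above the 0.265 median of the 50 cell cycle genes, but the median over the 8 inhibitors was 0.217. Of those 8, 6 were lower by 2-fold or more in NFOs than in OPCs. Among the 50 cell cycle genes, Rbl2, Orc6, Mcm2, Ccnb2, Mcm7, Cdc25c and Pcna had higher ratios than Cdkn1b. Cdkn1a, Cdkn1c and Cdkn3 had no listed peak in NFOs.

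The share of cell cycle genes with listed H3K27me3 was close to, or below, that of all protein-coding genes. In NSCs 5 of the 50 had a listed peak within 2 kb of a TSS (10%), against 15.1% of protein-coding genes. In OPCs 7 had 1 (14%), against 16.4%, and in NFOs 4 (8%), against 9.56%. With only H3K27me3 peaks of at least 1 kb this order reversed. Such peaks were near 5, 5 and 3 of the 50 genes in NSCs, OPCs and NFOs, against 5.85%, 5.4% and 4.37% of protein-coding genes. With all listed peaks, the NSC genes were Cdk6, Ccna1, Ccnb1, Mcm2 and Gins1, with fold enrichments from 3.06 at Mcm2 to 4.03 at Ccna1. Of the 5, 0 passed a fold enrichment of 5, and 4 of the 5 peaks held a run of A or T, that of Cdk6 being the exception. The OPC genes were Ccnd2, Cdk6, Ccna1, Cdc25b, E2f1, E2f8 and Cdc20, and the NFO genes were Ccnd2, Cdk6, E2f1 and E2f8.

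The widest H3K27me3 domain lay upstream of Ccnd2. It ran over 5406 bp in OPCs (chromosome 6, 127152908 to 127158313, fold enrichment 6.26) and over 5174 bp in NFOs (127152939 to 127158112, 4.75), ending at -715 and -746 bp from the gene start. In NSCs a small peak at -4955 bp was listed, and none within 2 kb. OPC H3K4me3 reached from -457 to 3720 bp, and the NFO peaks lay from -647 to -351 bp and from 1203 to 3724 bp. Within 2 kb the marks therefore lay side by side, while a small H3K4me3 peak, at -2890 bp in OPCs and -2876 bp in NFOs, lay inside the H3K27me3 domain.

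E2f1 and E2f8 had H3K27me3 in OPCs and NFOs and none within 2 kb in NSCs. At E2f1 a peak of 2592 bp with a fold enrichment of 8.24 ended at -718 bp in OPCs (chromosome 2, 154570610 to 154573201), where H3K4me3 was 354 bp. In NFOs the peak was 673 bp wide, with a fold enrichment of 5.96 and its edge 1 bp from that of the OPC peak, beside a run of A or T. At E2f8 the OPC peak of 795 bp had the highest H3K27me3 fold enrichment of any of the 50 genes, 10.9, and the NFO peak spanned 1864 bp at 4.72.

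Cdk6 had low H3K27me3 in all 3 cell types, 2750 bp in NSCs at a fold enrichment of 3.66, 1188 bp in OPCs at 3.41 and 1827 bp in NFOs at 3.78. Cdc25b and Cdc20 had it in OPCs only, at 2.97 and 3.32. Ccna1 had 929 bp at 8.09 in OPCs. H3K4me3 and H3K27me3 peaks overlapped near 5 genes in NSCs (10%), against 8.58% of protein-coding genes, and these were the 5 genes with H3K27me3. In OPCs they overlapped near 1 gene (2%), against 5.45%, and in NFOs near 1 gene (2%), against 2.9%. That gene was E2f8 in both cases.

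**Figure D3:**
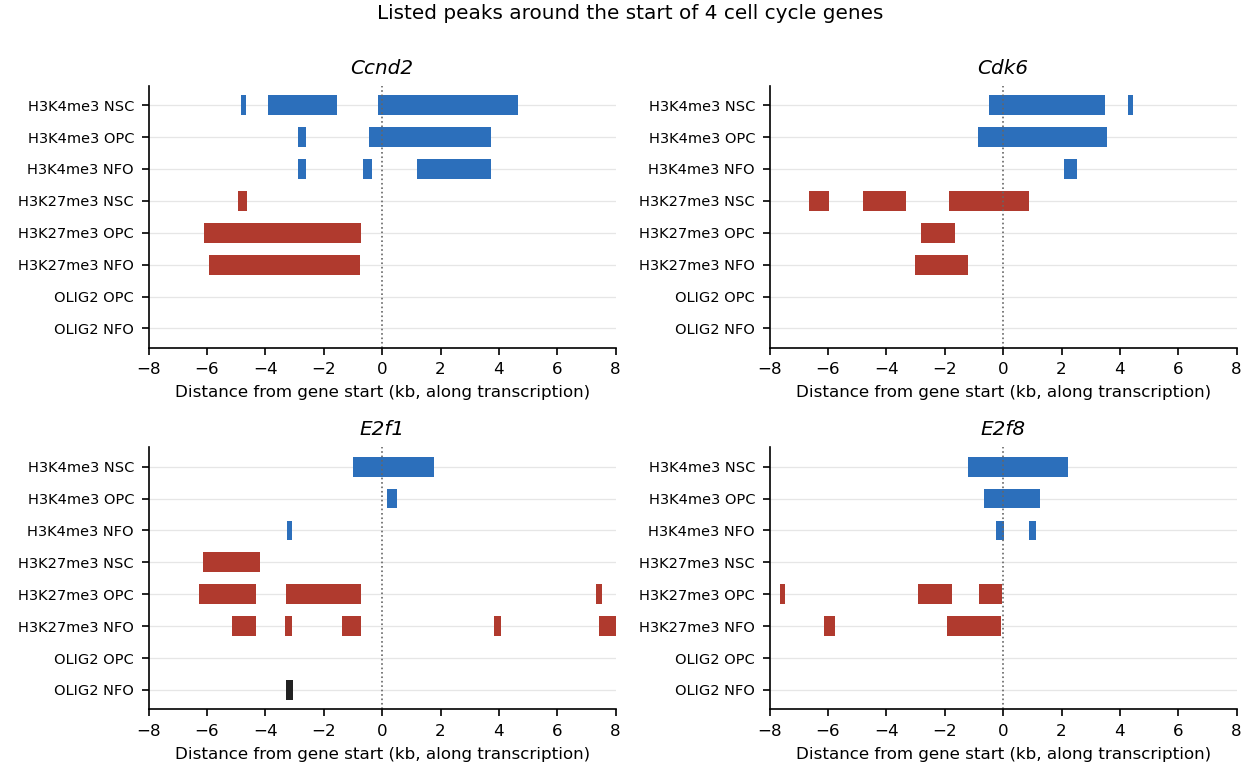
Listed H3K4me3 (blue), H3K27me3 (red) and OLIG2 (black) peaks around the start of Ccnd2, Cdk6, E2f1 and E2f8, with distance along transcription on the x axis (kb) and 1 row per library. Within 2 kb, H3K27me3 lies upstream of the start at all 4 genes in OPCs and NFOs, and E2f1 also has peaks further downstream, while H3K4me3 spans the start in NSCs at all 4 genes.

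OLIG2 peaks were counted in the gene and 5 kb upstream. In OPCs 11 of the 50 cell cycle genes had a listed peak (22%), against 16.5% of protein-coding genes, and in NFOs 19 had 1 (38%), against 28.2%. The OPC genes were Cdk6, Ccne2, Ccnb1, Cdc25b, Orc1, Mcm7, Cdc45, Rb1, Rbl1, Rbl2 and Plk1. The NFO genes were Ccnd2, Ccnd3, Cdk6, Cdc25a, Ccna1, Ccnb1, Cdc25c, Orc1, Mcm5, Gins1, Pcna, Rrm2, Tyms, E2f1, Cdc20, Bub1b, Ttk, Top2a and Birc5. Cdk6, Ccnb1 and Orc1 were in both sets, which is 27.3% of the OPC set and 15.8% of the NFO set. Among all protein-coding genes 2148 were in both, or 59.4% and 34.7%. All 3 pocket protein genes were in the OPC set and 0 in the NFO set, but these are long genes, with a median of 58.6 kb against 15.4 kb over the 50 genes. The Rb1 and Rbl2 peaks held runs of 20 and 17 A or T. With FDR below 0.05 and fold enrichment above 5, 10 genes had a peak in OPCs and 16 in NFOs, against 15% and 25% of protein-coding genes. Rbl1 in OPCs, and Mcm5, Cdc20 and Top2a in NFOs, had only peaks that did not pass. Counted within 5 kb of the gene start on either side, where gene length has no part, 6 genes had a peak in OPCs and 12 in NFOs, against 6.88% and 11.3% of protein-coding genes. None of the 8 CDK inhibitor genes had a listed OLIG2 peak in either cell type, but these are short genes. Their median length was 5.71 kb, against 17.4 kb over all protein-coding genes.

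The strongest peaks were those of Birc5, Orc1 and Cdk6 in NFOs and of Rb1 in OPCs, and those of Birc5, Cdk6 and Rb1 are shown. That of Orc1, the second highest, is not printed. Each is written 5′ to 3′ on the strand of its gene, from GRCm38, with E-box letters CANNTG in capitals. E-boxes are the sites that basic helix-loop-helix factors bind.
Birc5 intron, NFO peak, chr11:117850850-117851085, plus strand: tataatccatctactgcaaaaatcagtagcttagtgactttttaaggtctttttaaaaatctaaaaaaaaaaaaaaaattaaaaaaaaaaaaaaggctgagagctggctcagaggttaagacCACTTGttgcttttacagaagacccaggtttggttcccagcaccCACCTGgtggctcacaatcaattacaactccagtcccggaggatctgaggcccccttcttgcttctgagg
Cdk6 intron, NFO peak, chr5:3405357-3405592, plus strand: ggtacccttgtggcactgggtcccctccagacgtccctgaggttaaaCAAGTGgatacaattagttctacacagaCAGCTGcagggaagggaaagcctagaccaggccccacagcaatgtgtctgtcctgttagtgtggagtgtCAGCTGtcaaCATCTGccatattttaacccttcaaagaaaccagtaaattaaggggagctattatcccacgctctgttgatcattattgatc
Upstream of Rb1, OPC peak, chr14:73327992-73328221, minus strand: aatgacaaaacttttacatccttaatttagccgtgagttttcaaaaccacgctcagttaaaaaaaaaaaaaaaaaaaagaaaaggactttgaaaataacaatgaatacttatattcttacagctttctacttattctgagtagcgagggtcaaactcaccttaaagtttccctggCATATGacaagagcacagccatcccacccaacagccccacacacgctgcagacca

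The Birc5 peak had the highest fold enrichment of the 35 peaks, 19.1, and its summit lay 1649 bp downstream of the nearest TSS. It holds 2 E-boxes and a run of 16 A, and 64.4% of its bases are masked as repeats in the genome sequence. The Cdk6 peak (16.6) overlaps the OPC peak at the same place (11.5), 61163 bp downstream of the nearest TSS, and was the only place where OPC and NFO peaks of these genes overlapped. It holds 4 E-boxes, 2 of them CAGCTG, and its longest run of A or T is 4 bases, while the overlapping OPC peak also takes in a run of 15. The Rb1 peak (15.6) lay at -2285 bp, holds 1 E-box, CATATG, and a run of 20 A.

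At Orc1 the NFO peak had a fold enrichment of 16.7 with its summit at -166 bp from the TSS, on H3K4me3 of all 3 cell types and in a stretch shared with Prpf38a. The OPC peak of Orc1 (12.3) lay elsewhere, 4313 bp downstream in an intron. Of the 12 OPC peaks 0 lay on OPC H3K4me3, where 17.5% of OPC OLIG2 peaks in protein-coding genes and 5 kb upstream did. Of the 23 NFO peaks 6 lay on NFO H3K4me3 (26.1%), against 11.1%. The 6 were at Ccna1, Orc1, Gins1, E2f1, Cdc20 and Ttk. All of these OLIG2 peaks but that of Ccna1 held a run of at least 12 A or T. The NFO H3K4me3 peaks at Ccna1, E2f1 and Cdc20 had fold enrichments of 2.31, 2.85 and 2.37, below the 3.5 of the study's filter. The Cdc20 OLIG2 peak had a fold enrichment of 3.3, below the 5 of the filter for OLIG2. At E2f1 and Cdc20, which had no NFO H3K4me3 within 2 kb, the OLIG2 peak lay on the small H3K4me3 peak just outside the window.

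Of the 12 OPC OLIG2 peaks 1 lay on OPC H3K27me3, that of Cdc25b (8.33%), against 10.1% of those in protein-coding genes and 5 kb upstream, and 4 lay on H3K4me3 of NSCs (33.3%), against 28.4%. These 4 were at Ccne2, Ccnb1, Cdc25b and Rb1. Of the 23 NFO peaks 4 lay on H3K4me3 of OPCs (17.4%), against 9.47%, at Orc1, Gins1, Ttk and Birc5. Each of these 4 OLIG2 peaks held a run of A or T. The OPC H3K4me3 peak at Birc5, with a fold enrichment of 3.2, was below the study's filter. Of the same 23 NFO OLIG2 peaks 3 lay on OPC H3K27me3 (13%), against 9.36%, at Ccna1, E2f1 and Cdc20. On NFO H3K27me3 lay 1 of the 23 (4.35%), against 2.73%, that of E2f1. It thus overlapped both NFO marks, and the small H3K4me3 and H3K27me3 peaks there shared an edge at -3083 bp. At Ccnd2 and E2f8 no OLIG2 peak lay within the H3K27me3 domains, and the Ccnd2 peak in NFOs (6.2) was in an intron 6561 bp downstream of the nearest TSS.

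Runs of at least 12 A or 12 T were frequent in these peaks, at 7 of 12 in OPCs and 17 of 23 in NFOs, as in OLIG2 peaks at large. Among the 5 strongest NFO peaks, at Birc5, Orc1, Cdk6, Tyms and Rrm2, that of Cdk6 alone held none. Without peaks that hold a run, 5 cell cycle genes had an OLIG2 peak in OPCs, against 6.12% of protein-coding genes, and 4 in NFOs, against 12.1%. The share of the 50 genes in NFOs, 38% with all listed peaks, was then 8% and lay below that of all genes rather than above it. The median share of masked bases was 26.3% in the OPC peaks of these genes and 40.7% in their NFO peaks. In all listed OLIG2 peaks it was 28.7% and 34.3%, and in windows tiling the 50 genes and 5 kb upstream 18.3% and 18.2%. E-box letters CANNTG lay in the central 200 bases of 12 of 12 OPC peaks and 14 of 23 NFO peaks, against 66.2% and 63.8% of all listed peaks. CATCTG, searched on both strands, lay in 5 of 12 and 4 of 23, against 17.2% and 15%.

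**Figure D4:**
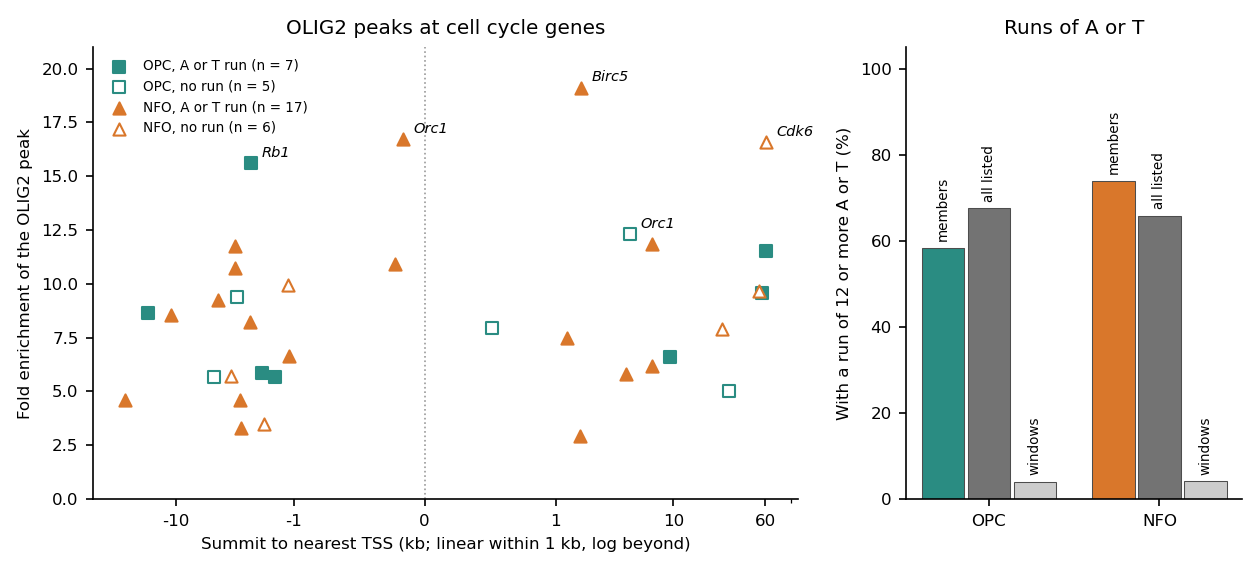
Left, fold enrichment of the 35 listed OLIG2 peaks at cell cycle genes (y axis) against the distance of the summit from the nearest TSS (x axis, kb, linear within 1 kb and log beyond), filled where the peak holds a run of at least 12 A or T. Right, share of peaks with such a run (y axis, %) among the peaks of cell cycle genes, all listed OLIG2 peaks and windows tiling the 50 genes, which lies above 58% for peaks and near 4% for windows.

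The promoters of the 50 genes were read for the letters that E2F factors and the late cell cycle complexes are known to bind. E2F letters were TTTCCCGC, TTTCGCGC, TTTGCCGC and TTTGGCGC, those of the cell cycle genes homology region (CHR), at which DREAM and MuvB complexes act on genes of mitosis, were TTTGAA, and those of the CCAAT box, the site of NF-Y, were CCAAT, all on both strands. RefSeq promoters of GRCm38, from 250 bases before to 50 after the start, matched 40 of the 50 genes. E2F letters were in 14 of the 40 (35%), where 3.32% of all protein-coding genes had them. CHR letters were in 15 (37.5%), against 17.6%, and CCAAT in 30 (75%), against 42.1%.

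E2F and CHR letters were found in different groups of genes. Of the 13 matched replication genes 7 had E2F letters, namely Cdc6, Cdt1, Mcm3, Mcm5, Mcm6, Mcm7 and Orc1, and 2 had CHR letters, Mcm2 and Cdc45. Of the 9 matched genes of mitosis 0 had E2F letters and 7 had CHR letters, namely Aurka, Bub1b, Cdc20, Mki67, Plk1, Top2a and Ttk. Cdk1, E2f2 and E2f3 had both. The 150 bases before the start are shown for 2 genes of S phase entry and replication, 2 genes of mitosis and E2f3, with matches in capitals, 5′ to 3′ on the strand of the gene and clear of any annotated exon.
Mcm6, chr1:128359706-128359855, minus strand: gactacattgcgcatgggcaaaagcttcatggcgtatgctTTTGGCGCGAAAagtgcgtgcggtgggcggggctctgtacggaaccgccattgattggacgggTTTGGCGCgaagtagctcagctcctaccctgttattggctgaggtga
Cdc25a, chr9:109875429-109875578, plus strand: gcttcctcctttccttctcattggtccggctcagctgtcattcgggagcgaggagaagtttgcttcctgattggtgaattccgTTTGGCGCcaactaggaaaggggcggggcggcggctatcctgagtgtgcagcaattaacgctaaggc
Mki67, chr7:135716380-135716529, minus strand: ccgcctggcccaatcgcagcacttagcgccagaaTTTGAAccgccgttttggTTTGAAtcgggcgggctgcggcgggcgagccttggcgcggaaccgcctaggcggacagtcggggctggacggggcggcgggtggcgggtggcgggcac
Top2a, chr11:99024190-99024339, minus strand: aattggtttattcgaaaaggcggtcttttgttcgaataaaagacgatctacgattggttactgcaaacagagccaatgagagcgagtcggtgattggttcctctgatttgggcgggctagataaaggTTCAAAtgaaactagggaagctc
E2f3, chr13:29986064-29986213, minus strand: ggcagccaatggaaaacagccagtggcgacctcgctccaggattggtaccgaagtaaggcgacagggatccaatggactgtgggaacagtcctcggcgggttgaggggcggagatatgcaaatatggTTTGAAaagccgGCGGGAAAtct

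In Mcm6 a match on each strand overlaps into the single stretch TTTGGCGCGAAA, and a second E2F match lies nearer the start. Mki67 has a pair of CHR matches. In E2f3 the CHR match lies just before an E2F match on the other strand, GCGGGAAA. A match of letters is a description and not a site.

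H3K4me3 was set beside these letters, with no test. Of the 14 genes with E2F letters 10 had H3K4me3 in NFOs and the median NFO to OPC ratio was 0.253, and of the 26 matched genes without them 20 had it and the ratio was 0.23. Of the 15 genes with CHR letters 12 had it and of the 25 without 18, with ratios of 0.361 and 0.147. The promoters were rich in G and C, with a median of 60.3% and 24.5 CpG over the 300 bases, against 57% and 14 CpG over all promoters of protein-coding genes.

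**Figure D5:**
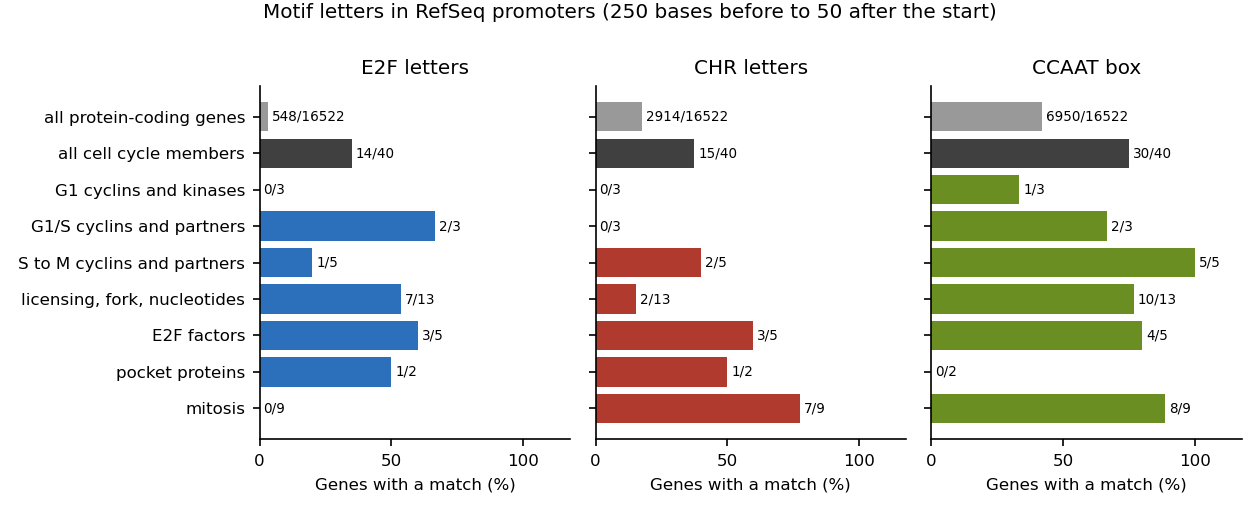
Share of genes with E2F letters, CHR letters and a CCAAT box in a RefSeq promoter (x axis, %), for all protein-coding genes, the 40 matched cell cycle genes and each role, with the number of genes written at each bar. E2F letters are in 7 of 13 replication genes and 0 of 9 genes of mitosis, and CHR letters in 2 of 13 and 7 of 9.

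In the RIP-Seq lists, which give sites of RNA precipitated with an antibody to OLIG2 or with IgG, 1 of the 50 genes appears with OLIG2 and 2 with IgG, against 2.53% and 2.56% of protein-coding genes. The title of the control calls it an input, while its antibody field names IgG. The titles of both samples name NFOs, while the methods of the study describe the experiment in NSCs. Gins2 had 125 distinct sites with OLIG2 and 90 with IgG, and Ccnd1 had 2 sites with IgG and 0 with OLIG2. The OLIG2 sites of Gins2 fill 195 entries on 3 transcripts. Of these, 53 overlapped an IgG site, and over those 53 the median ratio of OLIG2 to IgG tags was 0.538. Over distinct sites the tags were 4054 with OLIG2 and 3109 with IgG. With a ratio above 2, a site p-value below 0.01 and an RPKM of the transcript above 1, 2 Gins2 entries passed, and with a ratio above 4, 0 did. Entries that overlapped no IgG site had no ratio and could not pass.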

How the data were processed

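ChIP-Seq of H3K4me3 and H3K27me3 (NSCs, OPCs, NFOs) and of OLIG2 (OPCs, NFOs) and RIP-Seq of OLIG2 and IgG were used, with 1 library per condition grouped by sample title (the RIP-Seq control is titled an input and its antibody field names IgG). The authors mapped reads to mm10 with Bowtie2 and called OLIG2 peaks with SPP and broad histone peaks with MACS2. The OLIG2 libraries were made with a DNA SMART ChIP-Seq kit, and the kit of the histone libraries is not given in the sources used here. The deposited lists give each peak's fold enrichment over control, a ratio, and the −log10 of its FDR and p-value. Peak names mark the NSC histone reads as single-end and those of OPCs and NFOs as paired-end. For RIP-Seq the deposited lists give, from the authors' ASPeak runs, the tag count of each site, its p-value and the RPKM of the transcript. Depth is unknown, so covered bp was not scaled by it.

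All listed peaks were used, with an overlap of at least 1 bp. Covered bp was the union of listed peaks within 2 kb of any GENCODE M21 TSS. OLIG2 peaks were assigned to the gene body and 5 kb upstream. RIP-Seq ratios were taken over summed tags of overlapping IgG sites, and an entry with no such site had no ratio. A gene counted as lower when covered bp differed by 2-fold or more, with no test. On made-up peaks with known answers the code recovered covered bp and assigned peaks for 2000 of 2000 genes. Motifs were read in RefSeq promoters and the GRCm38 genome, and peak ends were checked to lie within its chromosomes. No promoter was matched for Ccnd1, Ccnd2, Ccne2, Ccna2, Cdc25c, Mcm4, Gins1, Gins2, Rb1 and Aurkb.

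Genes were named if they had H3K27me3, an OLIG2 peak or no H3K4me3 in some cell type, were among the 5 highest or lowest ratios or the 3 widest, or were D-type cyclins. Other members were named after their values were seen. The members, lists and rules were chosen with earlier results of these data known, and the runs of A or T were noticed in the printed sequences. Alternatives were stricter fold enrichments, 1 kb windows, 1 TSS per gene, other OLIG2 distances and, added after seeing the data, leaving out genes with a shared window and peaks with runs. Python 3.11.15, NumPy 2.4.6, pandas 2.3.3, pysam 0.24.0 and Matplotlib 3.10.9 were used.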

Additional observations from a re-analysis of the deposited data

How the results depend on the processing

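Of 95 alternative values 70 lay within 1.5 times of the value reported and 25 did not. With histone peaks of FDR below 0.05 and fold enrichment above 3.5, H3K27me3 was near 3 genes in NSCs and 4 in OPCs (9.5% and 12.8% of all protein-coding genes), and both marks overlapped near 2 in NSCs (5.16%). Above 5, H3K27me3 was near 0, 4 and 1 genes in NSCs, OPCs and NFOs (2.43%, 7.28% and 2.6%), both marks overlapped near 0 in NSCs and 0 in NFOs (1.34% and 1.03%), H3K4me3 was near 17 genes in NFOs (21.9%), and its median covered bp there was 0. Within 1 kb of a TSS, H3K27me3 was near 3 genes in NSCs and 4 in OPCs (9.64% and 11.8%), both marks overlapped near 3 in NSCs (5.65%), and covered bp was lower by 2-fold or more from NSCs to OPCs at 7 (23.4%). With a 3-fold rule that number was 5 (15.7%). With H3K27me3 peaks of at least 1 kb, both marks overlapped near 5 genes in NSCs (3.82%), 0 in OPCs (2.46%) and 1 in NFOs (1.52%). OLIG2 peaks of fold enrichment above 10 were at 3 genes in OPCs and 7 in NFOs (6.42% and 12.6% of all genes), and peaks within 5 kb of the gene start at 6 and 12. A RIP-Seq ratio above 4 left 0 sites. In alternatives chosen after seeing the data, leaving out histone peaks with a run of A or T at an edge left H3K27me3 near 4 genes in OPCs (10.1%) and H3K4me3 near 25 in NFOs, and leaving out OLIG2 peaks with a run left 5 and 4 genes. Each of these settings keeps fewer peaks, a smaller window or a stricter rule. No paired analysis was possible because each condition has 1 library. For the same reason no library could be left out, and without read depth a missing peak cannot be told apart from one under the calling threshold.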

Other observations

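Among 8 CDK inhibitor genes H3K27me3 was near 2 in NSCs, 4 in OPCs and 3 in NFOs, where the shares of all protein-coding genes were 15.1%, 16.4% and 9.56%. Cdkn1b, Cdkn2d and Cdkn3 had 0 bp in all 3 cell types. Cdkn2a, which encodes p16 and p19ARF, was covered by H3K27me3 over 5606 bp in NSCs, 4405 in OPCs and 5236 in NFOs. Its neighbour Cdkn2b, which encodes p15, was covered over 0, 1900 and 1792 bp, and Cdkn2c, which encodes p18, over 0, 270 and 534 bp. Cdkn1a, which encodes p21, had 1395 bp in NSCs and 0 later, and Cdkn1c, which encodes p57, had 570 bp in OPCs.

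Listed H3K27me3 in NSCs, found near 15.1% of protein-coding genes, was near 14 of the 89 other cell cycle genes (15.7%). For OPCs, where the share of all genes was 16.4%, it was near 9 of the 89 (10.1%). For NFOs, where that share was 9.56%, it was near 1 of the 89 (1.12%). E2F letters were in 15 of the 73 of these with a RefSeq promoter (20.5%) and CHR letters in 27 (37%), against 3.32% and 17.6% of all protein-coding genes.

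Some peaks of different lists shared an edge to the base. Of 10317 OPC H3K4me3 peaks that overlap an NFO one, 1381 had the same start and 1304 the same end, 5 and 4 of them near cell cycle genes. Of 14700 overlaps of NSC with OPC H3K4me3 peaks, 23 and 18 did. In the OPC and NFO histone lists, 84.5% to 86.3% of the starts shared with another list lay within 30 bp of a run of at least 12 A or T. The cause was not tested.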
